A study of Mus musculus with 10 samples.

Results

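A set of 10 genes that mark endothelial cells, the cells that line blood vessels, was followed in bulk RNA-seq of s.c. Panc02 tumors: Kdr, Flt1, Tek, Tie1, Pecam1, Cdh5, Esam, Eng, Vwf and Emcn. They were taken by name, as the rows of the count table whose Ensembl identifier maps to 1 of these symbols. Earlier results of these data were known when the list was made. The table held 37417 genes. All 10 endothelial genes were found in it, and all 10 were among the 15299 genes that passed the filter on low counts. Panc02 is a mouse pancreatic cancer cell line, here carrying a doxycycline-inducible Cas9 nuclease and a guide RNA. Cells with a nontargeting guide (sgNT) or with a guide against Cda (sgCda), the gene of cytidine deaminase, which converts cytidine to uridine, were injected under the skin of C57BL/6J mice. Per the labels, the mice had a wild-type genotype and an age of 12 weeks, and tumors were taken at day 16. There were 5 sgNT and 5 sgCda tumors, and whether any of the mice received an antibody was not given in the labels. The edit was made in the cancer cells alone, so endothelial cells of these tumors are cells of the unedited host. The study describes transduced cells selected with puromycin and also the isolation of single-cell clones, a pool of which served only for survival analysis. Its methods do not say which of these cells gave the tumors followed here.

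Endothelial cells receive growth signals through receptors for vascular endothelial growth factors (VEGFs), keep vessels stable through the TIE receptors and their angiopoietin ligands, and hold to each other through junction proteins. In tumors, where vessels grow and remodel, these genes are the usual markers of vessel content. A count from a whole tumor is an average over all its cells. A change in the number of endothelial cells, in their RNA per cell or in RNA of these genes from other cells therefore cannot be told apart in these data.

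The guides are shown because they define both groups. The sgCda guide, the second of a pair that the study tried, matched exon 2 of Cda, inside the coding sequence, at chr4:138351219-138351238 on the minus strand of build GRCm38, and no other gene in the GENCODE transcripts. The sgNT guide matched 0 transcripts exactly. Lower case gives the 20 bases of each guide, and capitals mark the 3 bases next to the target site in Cda, the PAM that Cas9 needs.
sgCda: tccagaaggccatctccgaaGGG
sgNT: gaacagtcgcgtttgcgact

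Libraries held 28051907 to 39484964 counts assigned to genes, of which the 10 endothelial genes took 4736 to 9345. The smallest level that a library can show, taken as 3 counts, was 0.0754 to 0.106 CPM, the count relative to the scaled total of the library, so every endothelial gene stood above it in every tumor. Cda itself averaged 12.1 ± 1.76 CPM over sgNT tumors and 9.77 ± 2.34 CPM over sgCda tumors (mean ± SD of 5), with an adjusted p of 0.9996 in edgeR's quasi-likelihood test. This count does not measure the edit, which the study checked in the cells by RT-qPCR and western blot. The study also found Cda RNA in sorted endothelial cells and some in fibroblasts of its tumor models, so the count is not of cancer cells alone. A pair of sgCda tumors stood apart: sgCda 3 had the most skeletal muscle RNA, 1915.5 CPM over 8 muscle genes against 1.74 to 478.5 CPM in sgNT tumors, and sgCda 4 had the shallowest library and the highest share of reads outside genes (18.4% against 10.3 to 14.9% in the other tumors). At least 1 fit without 1 or both of them is given beside each endothelial gene and beside some other genes whose values they moved.

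No endothelial gene differed between sgCda and sgNT tumors beyond the spread between tumors. Fitted levels were lower in sgCda tumors for 8 of the 10 genes, by 9.85% (Esam) to 18.8% (Vwf), and higher for Flt1 (6.84%) and Emcn (1.49%). In edgeR's quasi-likelihood test, 0 of 10 had an adjusted p under 0.05, as did 0% of all genes tested. With no adjustment, 0 of 10 had p under 0.05, where 2.5% of all genes did (0.954% with a lower level in sgCda). Groups overlapped for all 10 genes, and 0.601% of all genes had groups that did not overlap. The median log2 fold change (sgCda minus sgNT) was -0.19 over the 10 genes, with a range of -0.30 to 0.10, and 0.0078 over all genes tested, of which 47.1% had a negative value. Summed over the 10 genes, the sgNT tumors reached 212.5 ± 23.6 CPM and the sgCda tumors 191.0 ± 31.0 CPM (mean ± SD of 5). The 95% confidence intervals reached a median of 0.42 to each side of the log2 fold change, against 0.28 over all genes, so a change of 0.3 in these genes was not detectable with 5 tumors a group. The sign of 8 of the 10 differences was the same in all 21 alternative analyses, the exceptions being Emcn and, in 1 of them, Vwf. The median was -0.32 without sgCda 3, -0.10 without sgCda 4 and -0.30 with the level of skeletal muscle genes as a covariate, so its size depended on these tumors. The smallest adjusted p of any of the 10 genes in any alternative was 0.82.

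**Figure D1:**
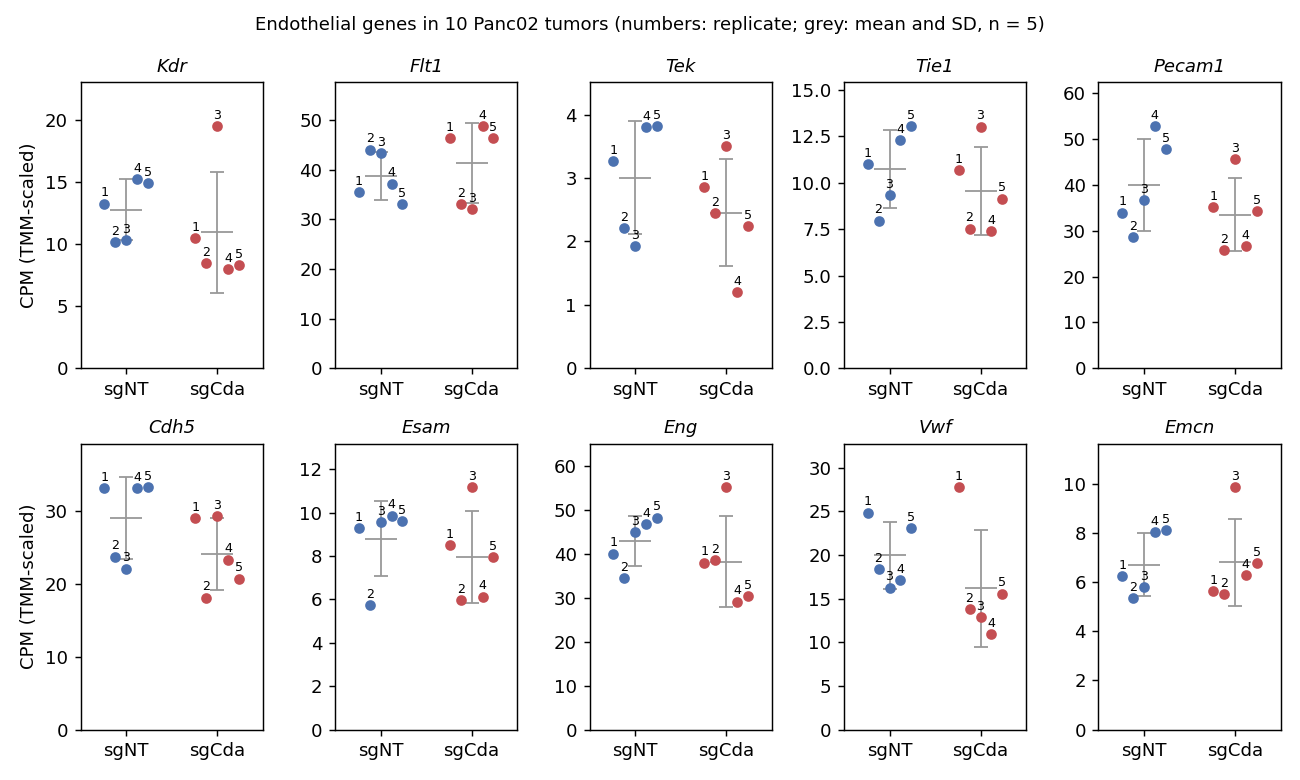
Level of each endothelial gene (y axis, CPM relative to the TMM-scaled library) in the 5 sgNT (blue) and 5 sgCda (red) tumors, numbered by replicate, with the group mean and SD in grey. The groups overlap for all 10 genes, and tumor sgCda 3 is the highest of the 10 for Kdr, Esam, Eng and Emcn.

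The VEGF receptors were read first. Kdr (chr5:75932827-75978458, minus strand) encodes VEGFR2, the main signalling receptor for VEGF-A. Flt1 (chr5:147561604-147726011, minus strand) encodes VEGFR1, which binds VEGF-A, VEGF-B and placental growth factor and also exists as a soluble form that holds the ligand. Their promoter sequences are shown beside those of Tek and Tie1, since Flt1 ran against the other 3 from tumor to tumor. Each is 300 bases of RefSeq (build GRCm38.p6), from 250 bases before to 50 bases after the annotated start, written 5′ to 3′ on the gene's strand. Capitals mark GGAA or its reverse complement TTCC, the core bound by ETS transcription factors, many of which act in endothelial cells. The windows are chr5:75978406-75978705 (Kdr, minus strand), chr5:147725962-147726261 (Flt1, minus strand), chr4:94739039-94739338 (Tek, plus strand) and chr4:118489800-118490099 (Tie1, minus strand).
Kdr: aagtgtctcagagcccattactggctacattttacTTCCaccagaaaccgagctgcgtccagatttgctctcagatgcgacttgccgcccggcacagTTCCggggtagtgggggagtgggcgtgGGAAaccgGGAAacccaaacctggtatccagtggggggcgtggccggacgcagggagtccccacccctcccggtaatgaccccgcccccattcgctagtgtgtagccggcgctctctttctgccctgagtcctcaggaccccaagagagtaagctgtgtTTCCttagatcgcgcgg
Flt1: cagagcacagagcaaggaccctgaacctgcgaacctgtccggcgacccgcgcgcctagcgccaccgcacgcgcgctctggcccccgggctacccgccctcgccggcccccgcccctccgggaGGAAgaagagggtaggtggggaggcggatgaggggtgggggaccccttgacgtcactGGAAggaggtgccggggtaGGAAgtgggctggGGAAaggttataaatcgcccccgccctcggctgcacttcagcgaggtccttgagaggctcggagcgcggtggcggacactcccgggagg
Tek: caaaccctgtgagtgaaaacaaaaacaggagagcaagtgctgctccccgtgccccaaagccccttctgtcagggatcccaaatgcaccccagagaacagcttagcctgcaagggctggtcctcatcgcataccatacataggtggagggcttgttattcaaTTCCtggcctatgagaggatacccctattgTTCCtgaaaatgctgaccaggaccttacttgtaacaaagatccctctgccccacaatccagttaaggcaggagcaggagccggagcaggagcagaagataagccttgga
Tie1: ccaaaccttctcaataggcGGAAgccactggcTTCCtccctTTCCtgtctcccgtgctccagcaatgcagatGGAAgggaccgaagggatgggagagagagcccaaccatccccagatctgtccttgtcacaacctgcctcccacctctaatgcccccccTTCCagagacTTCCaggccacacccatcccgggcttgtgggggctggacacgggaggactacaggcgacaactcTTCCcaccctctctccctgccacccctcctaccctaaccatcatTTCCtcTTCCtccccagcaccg

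Over both strands, the 4 letters occurred 5 times in the Kdr window, 4 times in Flt1, 2 times in Tek and 9 times in Tie1, and 4 and 6 times in those of Eng and Emcn. The table of promoters held 6 of the 10 endothelial genes and did not list Pecam1, Cdh5, Vwf or Esam. At least 1 match was present in 96.0% of all 32851 promoter windows of this length, with a median of 3 matches, so the presence of the letters does not set these genes apart. A longer form, CCGGAAG, which contains GGAA, was in none of the 6 windows on either strand and in 8.86% of all windows. The core bound by hypoxia-inducible factors was searched in both of its forms, whose last base can be the first of a match to the ETS core. The form ACGTG was in none of the 6 windows and in 19.6% of all. The form GCGTG occurred 2 times in the Kdr window and 1 time each in those of Flt1 and Emcn, and was in 32.4% of all windows.

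Kdr was at 13.3, 10.2, 10.3, 15.3 and 14.9 CPM in sgNT tumors 1 to 5. In sgCda tumors 1 to 5 it was at 10.5, 8.51, 19.6, 8.01 and 8.35 CPM. The sgCda group thus held the highest tumor of all, sgCda 3, and the 3 lowest, and 1 of its 5 values lay within the sgNT range. The log2 fold change was -0.22 (SE 0.25), with p = 0.365 by exact permutation of the 10 tumors between the groups (two-sided; 5 against 5 tumors cannot give a p below 0.00794). Without sgCda 4 it was -0.12. Without sgCda 3 it was -0.53, with an unadjusted p under 0.05 but an adjusted p above it in edgeR's test.

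Flt1 was at 35.5, 44.0, 43.4, 37.2 and 33.1 CPM in sgNT tumors 1 to 5. It was at 46.3, 33.1, 32.0, 48.8 and 46.3 CPM in sgCda tumors. None of the sgCda values lay inside the sgNT range: 3 were above it and 2 below it. Its log2 fold change was 0.10 (SE 0.14; two-sided exact permutation p = 0.627), and it was 0.17 without sgCda 3 and 0.029 without sgCda 4. Of the 10 genes, Flt1 had the smallest spread over tumors, with a highest level 1.52 times the lowest.

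The remaining VEGF receptor, Flt4 (VEGFR3, the receptor for VEGF-C and VEGF-D, found on lymphatic and on growing blood endothelium), had been listed with lymphatic genes. It was at 4.32, 4.07, 4.25, 4.40 and 4.40 CPM in sgNT tumors 1 to 5, and at 2.68, 3.40, 3.44, 3.76 and 2.85 CPM in sgCda tumors. The highest sgCda tumor was below the lowest sgNT tumor, a separation shown by 0.601% of all genes. Fitted, this was a log2 fold change of -0.41 (SE 0.13), with an adjusted p of 0.9996 in edgeR's test, so it did not pass over all genes. Alternatives gave -0.56 to -0.35, all with an adjusted p above 0.05.

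The ligands and coreceptors of these receptors did not pass the test either. Of 10 genes listed, 8 had a lower and 2 a higher fitted level in sgCda tumors, with a median log2 fold change of -0.09 and 0 with an adjusted p under 0.05. Vegfa, the main vessel growth factor, averaged 100.8 ± 20.5 CPM over sgNT and 107.9 ± 39.1 CPM over sgCda tumors (mean ± SD of 5). Vegfb had a log2 fold change of -0.05, Vegfc, the lowest of the list, -0.24, and Pgf (placental growth factor), the highest, 0.22. The VEGF coreceptors Nrp1 and Nrp2 (neuropilins) had values of -0.0096 and -0.15, and Dll4, the Notch ligand of vessel tips, -0.17. Nrp2, with 236.4 ± 12.3 CPM over sgNT and 213.5 ± 11.7 CPM over sgCda tumors, was the 1 gene of the list with an unadjusted p under 0.05, and its adjusted p in edgeR's test was 0.9996. The sign of the difference for Vegfa, Pgf and Nrp1 turned under some alternatives.

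**Figure D2:**
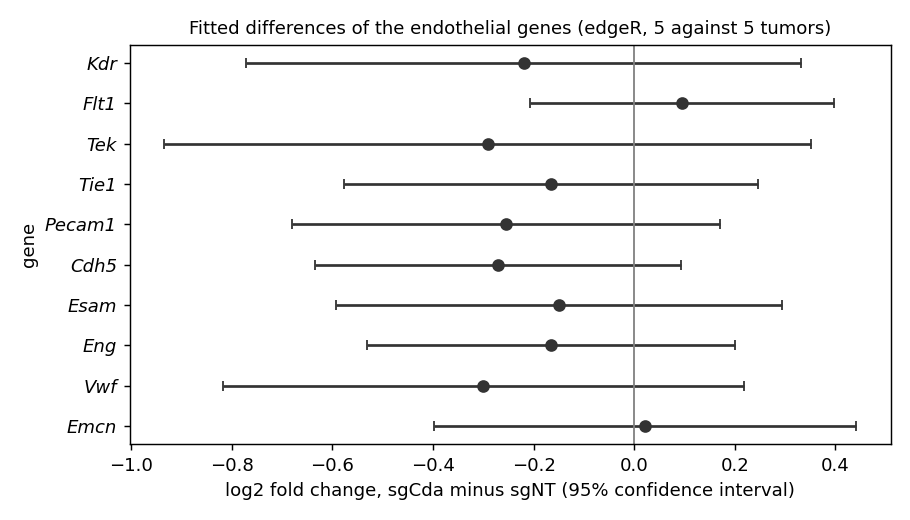
Log2 fold change (x axis, sgCda minus sgNT) of each endothelial gene with its 95% confidence interval from edgeR's quasi-likelihood fit, 5 against 5 tumors. Points run from -0.30 (Vwf) to 0.10 (Flt1), and every interval includes 0.

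Tek and Tie1 form the TIE pair. Tek (chr4:94739289-94874976, plus strand) encodes TIE2, the receptor for angiopoietins, and Tie1 (chr4:118471191-118490061, minus strand) a related receptor that modulates it. Tek was the least abundant of the 10 genes per length. It was at 3.27, 2.21, 1.92, 3.80 and 3.82 CPM in sgNT tumors 1 to 5 and at 2.86, 2.45, 3.50, 1.20 and 2.25 CPM in sgCda tumors. A single tumor, sgCda 4, lay below the sgNT range, with 34 counts, and the highest level was 3.17 times the lowest, the widest span of the 10 genes. Tek had a log2 fold change of -0.29 (SE 0.29; two-sided exact permutation p = 0.381). The value was -0.45 without sgCda 3 and -0.12 without sgCda 4.

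Tie1 was at 11.0, 7.96, 9.33, 12.3 and 13.1 CPM in sgNT tumors 1 to 5. In sgCda tumors it was at 10.7, 7.53, 13.0, 7.40 and 9.15 CPM. Both groups held tumors near the top and near the bottom of the range, and 3 of 5 sgCda values lay within the sgNT range. Tie1 had a log2 fold change of -0.17 (SE 0.19; two-sided exact permutation p = 0.357), which was -0.30 without sgCda 3 and -0.085 without sgCda 4. The ligand Angpt1, which activates TIE2, averaged 544.8 ± 110.5 CPM over sgNT and 477.0 ± 146.5 CPM over sgCda tumors (mean ± SD of 5), with its lowest value, 246.6 CPM, in sgCda 3. Angpt2, the context-dependent antagonist that endothelial cells make, was at 11.4 ± 2.68 and 10.9 ± 2.70 CPM. Both had an adjusted p of 0.9996 in edgeR's test.

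A further 3 genes encode adhesion proteins of endothelial junctions. Pecam1 (chr11:106654217-106750628, minus strand) encodes CD31, Cdh5 (chr8:104101625-104144511, plus strand) VE-cadherin, and Esam (chr9:37528078-37538319, plus strand) an adhesion molecule of tight junctions. Pecam1 was at 34.0, 28.6, 36.7, 52.8 and 47.7 CPM in sgNT tumors 1 to 5 and at 35.2, 25.8, 45.6, 26.6 and 34.2 CPM in sgCda tumors. The top pair of tumors was sgNT 4 and sgNT 5, and sgCda 2 and sgCda 4 lay below every sgNT tumor. The log2 fold change was -0.25 (SE 0.19; two-sided exact permutation p = 0.254), with -0.39 without sgCda 3 and -0.14 without sgNT 4 as the extremes when each tumor was left out.

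Cdh5 was at 33.0, 23.7, 22.1, 33.1 and 33.2 CPM in sgNT tumors 1 to 5 and at 29.0, 18.1, 29.2, 23.3 and 20.7 CPM in sgCda tumors. The sgNT values fell near 33 or near 23 CPM, and sgCda 2 and sgCda 5 were below both. The log2 fold change of Cdh5 was -0.27 (SE 0.17; two-sided exact permutation p = 0.198). It was -0.18 without sgCda 2, -0.35 without sgCda 3 and -0.26 without sgCda 4. Esam was at 9.27, 5.75, 9.55, 9.86 and 9.60 CPM in sgNT tumors and at 8.49, 5.96, 11.2, 6.13 and 7.94 CPM in sgCda tumors. A single sgNT tumor, sgNT 2, was the lowest of the 10, and the log2 fold change was -0.15 (SE 0.20; two-sided exact permutation p = 0.508). For Esam the extremes when each tumor was left out were -0.31 without sgCda 3 and -0.058 without sgCda 2.

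The last 3 genes have other roles. Eng (chr2:32646595-32682669, plus strand) encodes endoglin, a coreceptor for ligands of the TGF-β family. It was at 40.0, 34.5, 44.9, 46.7 and 48.2 CPM in sgNT tumors 1 to 5 and at 38.0, 38.6, 55.1, 29.1 and 30.3 CPM in sgCda tumors. As for Kdr, sgCda 3 was the highest and sgCda 4 and sgCda 5 were the lowest of all, and the log2 fold change was -0.17 (SE 0.17; two-sided exact permutation p = 0.310). Without sgCda 4 it was -0.080. Without sgCda 3 it was -0.33, with an unadjusted p under 0.05 but an adjusted p above it in edgeR's test. Exons of Eng share bases with Fpgs on the opposite strand, and the strand setting of the counting was not stated, so its counts are uncertain.

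Vwf (chr6:125546774-125686679, plus strand) encodes von Willebrand factor, a secreted clotting glycoprotein made by endothelial cells and megakaryocytes. It was at 24.8, 18.4, 16.3, 17.2 and 23.1 CPM in sgNT tumors 1 to 5 and at 27.7, 13.8, 12.9, 10.9 and 15.6 CPM in sgCda tumors. In the sgCda group 4 tumors were below every sgNT tumor and 1, sgCda 1, was above them all. Its log2 fold change was -0.30 (SE 0.24; two-sided exact permutation p = 0.198). Leaving out each tumor gave -0.58 (without sgCda 1) to -0.19 (without sgCda 4), and leaving out both sgCda 3 and sgCda 4 gave -0.070. The unadjusted p was under 0.05 without sgCda 1 and with the replicate number as a block (-0.36), the adjusted p was above it in both, and with sample quality weights the value was 0.0021.

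Emcn (chr3:137341067-137432185, plus strand) encodes endomucin, a sialomucin of venous and capillary endothelium. It was at 6.24, 5.34, 5.80, 8.04 and 8.12 CPM in sgNT tumors 1 to 5. It was at 5.63, 5.52, 9.85, 6.27 and 6.77 CPM in sgCda tumors, of which 4 lay within the sgNT range and sgCda 3 above it. The log2 fold change was 0.02 (SE 0.19; two-sided exact permutation p = 0.976). It was negative, down to -0.17, in 7 of the 21 alternatives, among them the fit without sgCda 3 and sgCda 4.

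Levels of different genes were compared per length, as CPM per kilobase of exon (RPKM), over all 10 tumors. The length was that of the merged exons of all annotated transcripts of a gene. It was 16064 bases for Vwf, 13504 for Flt1 and 4203 for Cdh5, so the order can depend on this choice of length. Eng was the most abundant, at 10.01 ± 2.03 RPKM (SD, n = 10), followed by Cdh5 at 6.32 ± 1.34 RPKM and Pecam1 at 5.90 ± 1.48 RPKM. Flt1 (2.96 ± 0.476), Esam (2.92 ± 0.654) and Tie1 (2.06 ± 0.447 RPKM) came next. Kdr (1.32 ± 0.417), Emcn (1.25 ± 0.271), Vwf (1.12 ± 0.342) and Tek (0.579 ± 0.184 RPKM) were the lowest. Neighbours in this order were compared within tumors by a two-sided exact sign-flip permutation test of log2 RPKM. The order came from the same 10 tumors, and each difference includes the ratio of the chosen lengths. A small p therefore describes only how constant a difference was over tumors at these lengths. The order was the same in 10 of 10 tumors for Eng over Cdh5, Pecam1 over Flt1, Esam over Tie1, Tie1 over Kdr and Vwf over Tek (exact p = 0.00195 each, the smallest that 10 tumors allow). It was not distinguishable for Cdh5 and Pecam1 (exact permutation p = 0.199), Flt1 and Esam (0.828), Kdr and Emcn (0.609) or Emcn and Vwf (0.332). For scale, the ligand Angpt1 was at 98.2 ± 24.5 RPKM and the coreceptor Nrp1 at 56.2 ± 8.46 RPKM, above every endothelial gene listed here.

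The level of the endothelial genes varied more from tumor to tumor than that of most genes. The SD of log2 CPM within a group had a median of 0.29 in sgNT and 0.35 in sgCda tumors over the 10 genes, against 0.16 and 0.23 over all genes tested. It was larger in sgCda tumors for 9 of the 10 genes, as it was for 77.5% of all genes. Tumors sgNT 4 (236.3 CPM), sgNT 5 (234.8) and sgCda 3 (231.9) had the highest summed levels and sgCda 2 (159.3) and sgCda 4 (167.8 CPM) the lowest, a span of 1.48-fold. Both groups therefore contributed to the top of the range, and the lowest pair was from the sgCda group. Tumor sgCda 4 was the lowest of 10 for 5 of the genes but the highest for Flt1. Tumor sgCda 3 was the highest for 4 of the genes and the lowest for Flt1.

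**Figure D3:**
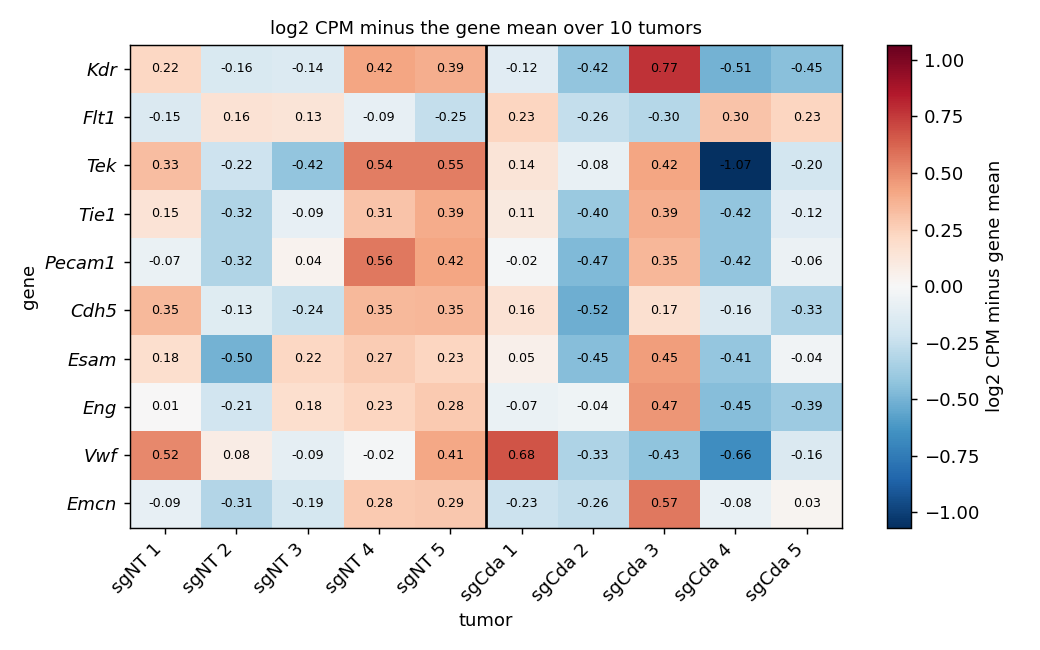
Heat map of log2 CPM minus the mean of the gene over 10 tumors, with the endothelial genes in rows, the tumors in columns and a black line between the groups. Red marks a level above and blue a level below the mean of the gene, and Flt1 runs opposite to most rows, above its mean in sgCda 4 where Tek is furthest below.

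Most of the genes rose and fell together over tumors. Correlations below are over 10 tumors, which share the scaling of each library, and are given as a description. The 45 pairs of the 10 genes had a median Pearson r of 0.67 (Spearman rho 0.66), against -0.0007 for pairs of all genes tested, and 0.65 after each group was centred on its own mean. A value of r above 0.5 was found in 30 of the 45 pairs (66.7%, against 15.9% of all pairs) and above 0.8 in 9 pairs (20%, against 2.48%). Without Flt1, a choice made after its values were seen, the 36 remaining pairs had a median r of 0.75. The closest pairs were Pecam1 and Tie1 (r = 0.93), Tie1 and Esam (0.91) and Kdr and Tie1 (0.90). Tie1 followed the other 9 genes best, with r = 0.99, which stayed between 0.98 and 0.99 when any 1 tumor was left out. The first principal component of all genes, which held 40.7% of the variance, had a correlation with the mean of the 10 genes of 0.72 in size.

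Flt1 was the exception: its Pearson r with each of the other 9 genes was below 0, though for Vwf it was near 0 (r = -0.06, rho 0.0061, and r = 0.03 after centring on group means), and of the 10 negative pairs only that of Vwf and Emcn (r = -0.18) did not include it. With the mean of the other 9 its r was -0.60 (rho -0.56). The value was -0.88 without sgCda 2 and -0.48 without sgCda 4, the extremes when each tumor was left out, and -0.35 without sgCda 3 and sgCda 4, so its size depended on single tumors. After each group was centred on its own mean it was -0.59. The strongest negative pairs were with Eng (r = -0.76), Tek (-0.73) and Kdr (-0.69). The ratio of Flt1 to Kdr in RPKM was 1.79, 2.88, 2.81, 1.63 and 1.48 in sgNT tumors 1 to 5. It was 2.95, 2.60, 1.09, 4.07 and 3.71 in sgCda tumors. Flt1 thus exceeded Kdr per length in all 10 tumors, by the least in sgCda 3 and by the most in sgCda 4.

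**Figure D4:**
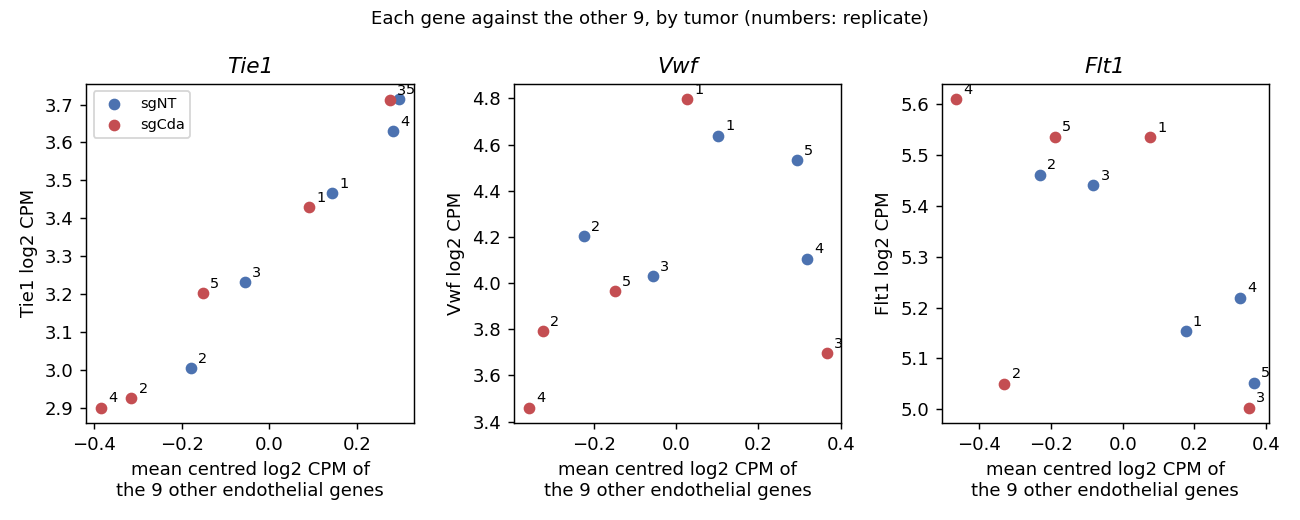
Log2 CPM of Tie1, Vwf and Flt1 (y axes) against the mean centred log2 CPM of the 9 other endothelial genes (x axes) in sgNT (blue) and sgCda (red) tumors, numbered by replicate. Tie1 lies close to a rising line (r = 0.99), Vwf is scattered (r = 0.37) and Flt1 falls (r = -0.60).

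Vegfa, a ligand of both VEGF receptors, had r = 0.76 with Flt1 and -0.40 with Kdr over the same tumors. Its level was highest in sgCda 4 (156.1 CPM) and sgCda 5 (143.3 CPM), where Flt1 was also high and Kdr low. Pgf, a ligand of Flt1 and not of Kdr, had r = 0.45 with Flt1 and -0.77 with Kdr. The coreceptor Nrp1 had r = 0.46 with Flt1 and -0.69 with Kdr. Vegfd had the same signs, 0.69 and -0.64. Not all ligands did: Vegfb, also a ligand of Flt1, had r = -0.0027 with Flt1 and 0.40 with Kdr. Vegfc had -0.12 with Flt1 and 0.39 with Kdr. The genes most like Flt1, a comparison chosen after its values were seen and limited to genes with a mean log2 CPM of 1 or more, were Asap2 and Atf2 (r = 0.93 each), Slc30a9 and Ppp2r3a, followed by Vps37a, Sec63, Cdh13, Trpc1, Kdm3a and Gpr39 (0.88). Their r with the mean of the endothelial genes was -0.65 to -0.37, a sign that the choice by likeness to Flt1 largely sets.

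Most other genes known from endothelium followed the same tumors. A further 20 endothelial genes were listed, of which 19 were tested (Sele, E-selectin, was below the filter). Their mean level had r = 0.97 with that of the 10 genes. This cannot check the label of the genes as endothelial, since some lists of other cells also followed the 10 genes. Pericytes and mural cells had r = 0.76 and fibroblasts 0.67, though adipocytes had -0.59. Of the 19, 13 had a lower and 6 a higher fitted level in sgCda tumors, with a median log2 fold change of -0.09 and 0 with an adjusted or unadjusted p under 0.05. The lowest was Esm1, a gene of vessel tip cells, at -0.70 (4.87 ± 0.927 CPM over sgNT and 2.98 ± 1.88 CPM over sgCda tumors, mean ± SD of 5), and the highest Gpihbp1, which anchors lipoprotein lipase on capillaries, at 0.25. Esm1 was at -1.10 without sgCda 3 and -0.44 without sgCda 4. Its unadjusted p was under 0.05 without sgCda 3, without both of these tumors (-0.79), with quality weights (-0.86) and with the replicate block (-0.95), and its adjusted p was 0.82 or higher throughout. Over the 16 of these genes abundant enough to be ranked, r with the 10 genes had a median of 0.78 and ran from -0.34 (Gpihbp1) to 0.96 (Sox18). Of 10 endothelial transcription factors, 7 were lower and 3 higher, from -0.22 (Erg) to 0.15 (Sox17), and none had an adjusted or unadjusted p under 0.05. Their mean level had r = 0.87 with that of the 10 genes, but 4 of them (Erg, Sox7, Sox17 and Sox18) are also among the 20 further endothelial genes. Over the 7 abundant enough to be ranked the median r was 0.43, and Foxo1 had -0.64.

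The 10 genes outside the list whose pattern was most like the mean of the 10 endothelial genes, among 12238 genes ranked over 10 tumors, were Lama4 (r = 0.97), Prex2, Jcad, Sox18, Ptprm, Adamts9, Nid1, Cyyr1, Igfbp7 and Cox11 (0.93). Lama4 and Nid1 encode components of basement membranes, and Sox18 is an endothelial transcription factor. Their log2 fold changes ran from -0.32 (Igfbp7) to -0.09 (Cyyr1), a sign that the choice by likeness largely sets. An r above 0.8 was reached by 1.12% of the genes ranked, and by 8 of 16 ranked genes of the further endothelial list. It was not particular to endothelial genes. Of the ranked genes of other cells, 3 of 8 for pericytes and mural cells reached it. So did 1 of 2 for lymphatic endothelium (Pdpn) and 1 of 3 for platelets and megakaryocytes (Pf4). It was 0 of 8 for macrophages and 0 of 8 for fibroblasts, but the fibroblast count depends on the genes listed. Their r had a median of 0.67 and ran from -0.59 (Dcn) to 0.79 (Col1a2). Some matrix genes outside the lists were above 0.8, such as Fbn1 (r = 0.88), Col14a1 (0.85) and Col5a2 (0.82).

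Markers of other cells moved with the endothelial genes to differing degrees, and their part in the differences was not tested. Over 11 genes of pericytes and mural cells, which wrap vessels, the mean level had r = 0.76 with the endothelial genes, 9 were lower and 2 higher in sgCda tumors, and their summed level was 457.6 to 604.6 CPM over sgNT and 358.5 to 570.6 CPM over sgCda tumors. Fitted values ran from -0.32 (Acta2) to 1.07 (Des, which skeletal muscle also expresses, -0.10 without sgCda 3). For 8 fibroblast genes r was 0.67, with 5 lower and 3 higher, from -0.15 (Lum) to 0.13 (Fap), and summed levels of 3233 to 7128 and 3815 to 5860 CPM. Single endothelial genes ran from r = -0.43 (Flt1) to 0.81 (Tek) with the fibroblast genes, and Tek had 0.82 with the other 9 endothelial genes. For lymphatic endothelium r was 0.79 over 3 genes tested, from Flt4 to Lyve1 (0.91, but 0.022 without sgCda 3, 0.37 without sgCda 3 and sgCda 4 and 0.17 in limma-voom), with summed levels of 14.5 to 38.1 and 12.7 to 39.1 CPM, and the defining marker Prox1 had 15 counts over all 10 libraries.

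Taken as lists, markers of blood cells were less alike to them. For 8 macrophage genes r was 0.32, with 6 lower and 2 higher, from -0.11 (Fcgr1) to 0.24 (Mertk), and summed levels of 3122 to 4422 CPM over sgNT and 3105 to 4433 CPM over sgCda tumors. Single endothelial genes ranged widely, from r = -0.64 (Flt1) to 0.76 (Eng) with the macrophage genes. With the T cell genes the range was -0.57 (Flt1) to 0.78 (Eng). Eng was thus as close to both lists as to the other 9 endothelial genes (0.76). For platelets and megakaryocytes, which share Vwf, Pecam1 and Esam with endothelium, r was 0.37 over 6 genes tested of 8, from -0.18 (Pf4) to 0.32 (Gp1ba), with 63.7 to 88.9 and 52.8 to 76.8 CPM. Most of this sum was Itgb3, with a mean of 53.0 CPM over sgNT and 46.8 CPM over sgCda tumors. Gp9 and Treml1, below the filter, had 34 and 32 counts over all 10 libraries. Single genes of this list differed: over the 3 abundant enough to be ranked, r ran from -0.52 (Itga2b) to 0.90 (Pf4). All 6 T cell genes had higher fitted levels in sgCda tumors, between 0.10 (Cd3g) and 0.12 (Cd3e), but without sgCda 3 these 2 genes were at -0.25 and -0.17, and they were negative in 6 and 4 of the 21 alternatives. The list had r = 0.36 and summed levels of 225.1 to 374.2 and 159.5 to 556.8 CPM. All 5 genes of red blood cells had lower fitted levels, from -0.34 (Hbb-bs) to -0.08 (Hba-a2), but Hba-a2 was positive in 7 of the 21 alternatives, and without sgCda 3 and sgCda 4 Hbb-bs was at 0.071 and Hba-a2 at 0.39. The list had r = 0.20 and 18.8 to 81.8 and 4.29 to 92.7 CPM. None of these genes had an adjusted or unadjusted p under 0.05.

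Tissue carried along with the tumor also varied. All 7 skeletal muscle genes tested of 8 were higher in sgCda tumors, from 1.64 (Acta1, 0.17 without sgCda 3) to 2.05 (Mb, 1.38 without sgCda 3), with r = 0.33, summed levels of 1.74 to 478.5 CPM over sgNT and 1.74 to 1915.5 CPM over sgCda tumors, and 0 with an unadjusted p under 0.05. With their mean level as a covariate, 9 of the 10 endothelial genes were lower in sgCda tumors and 1, Eng, had an unadjusted p under 0.05, as did 3.58% of all genes in that fit. For 8 adipocyte genes, 2 lower and 6 higher, from -1.23 (Lep) to 1.08 (Retn), r was -0.59, with 88.6 to 262.2 CPM over sgNT and 80.0 to 970.7 CPM over sgCda tumors. The highest was sgCda 2, the tumor with the lowest endothelial sum. With the adipocyte level as a covariate, chosen after seeing the data, 8 of the 10 endothelial genes were lower and 0 had an unadjusted p under 0.05, against 2.37% of all genes. For epithelial genes r was -0.15 over 5 tested of 6, with 3 lower and 2 higher, from -0.18 (Cdh1) to 0.78 (Epcam, 1.08 without sgCda 3 and sgCda 4, the 1 with an unadjusted p under 0.05, and an adjusted p of 0.9996 in edgeR's test), and 590.2 to 922.1 and 566.6 to 1015.2 CPM.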

How the data were processed

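RNA from 10 tumors was sequenced, and the gene counts used here are whole numbers as deposited by the authors, with no normalization. The authors extracted RNA with TRIzol, made polyadenylated, stranded mRNA libraries, read the first bases of each fragment, aligned trimmed reads to GRCm38 (mm10) with TopHat and Bowtie and counted per Ensembl gene with HTSeq. The submitters' processing notes name FastQC 0.11.5. The strand setting and annotation release are not given in the sources used here. HTSeq drops reads that align to several places or genes. Its 5 summary lines were left out (10.3 to 18.4% of uniquely aligned reads lay outside genes and 2.30 to 2.51% were ambiguous), and 0 columns belonged to another sample.

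Genes were filtered with filterByExpr (minimum count 10, minimum total 15), scaled by TMM and tested with edgeR 4.0.16 (glmQLFit, glmQLFTest, R 4.3.3, no covariate), with Benjamini-Hochberg adjustment over 15299 genes. The test was tested on simulated counts. Log2 CPM used a prior count of 2. The GENCODE annotation of GRCm38 gave positions and exon lengths. Alternatives used DESeq2 1.42.0, limma 3.58.1, other scaling and filters, covariates and fits without each tumor. The adipocyte covariate and the correlation without Flt1 were added after seeing the data. P values of group differences set the difference against the spread between tumors, and those of the sign-flip test compare a pair of genes within tumors. The 10 endothelial genes (the members) and the gene lists were chosen with earlier results of these data known. Genes named are the 10 members, Cda, 9 ligands and coreceptors, the lowest and highest fold change of each other list, and the 10 genes most like the members' mean. Flt4, Vegfa with Flt1, and the genes most like Flt1 were described further after their values were seen. Groups and replicate numbers came from sample titles. Same-numbered tumors of both groups had deviations correlated at -0.43 to 0.34, above 0.1 in 2 of 5, so the numbers were not taken as pairs.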

Additional observations from a re-analysis of the deposited data

Results flagged for a closer look

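Of 90 groups of 5 tumors examined, 5 held a tumor far from the other 4, where chance gives about 1 in 20, or 4.5. Esam was at 2.54 log2 CPM in sgNT replicate 2, with the other sgNT tumors at 3.22 to 3.31. Gpihbp1, of the further endothelial genes, was at 3.42 log2 CPM in sgNT replicate 1, above the 2.70 to 2.84 of the others. In sgNT replicate 3, Sox17 was low at -0.014 log2 CPM (others 0.71 to 0.94), while Cd3g was high at 6.38 (others 5.68 to 5.87), as was Cd3e at 5.36 (others 4.71 to 4.85).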

How the results depend on the processing

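Depth and 5 tumors a group limit these comparisons. The count of genes with an adjusted p under 0.05 was 0 in all 21 alternatives, for all genes and for the 10 endothelial genes. With no adjustment, all genes gave 382 (edgeR), 433 (DESeq2) and 317 (limma-voom). The count was 830 of 26302 genes with the 1-count filter, 719 with quality weights, and 280 to 747 when each tumor was left out (747 without sgCda 3). For the endothelial genes the unadjusted count was 1 with quality weights (Kdr; 4.7% of all genes), 1 with the replicate block (Vwf; 2.12%), 1 with the muscle covariate (Eng; 3.58%), 1 without sgCda 3 and 4 (Kdr; 3.35%), and 0 to 2 when each tumor was left out (2, Kdr and Eng, without sgCda 3, 4.86% of all genes, and 1, Vwf, without sgCda 1, 2.75%). The replicate block left the adjusted counts at 0. The cause was not tested. Of 34 other named genes, 16 kept their sign in every alternative.

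Log2 fold changes that turned sign follow. Limma-voom turned Cd3g (-0.021). With quality weights the values were 0.0021 for Vwf, -0.15 for Emcn, -0.037 for Vegfa, -0.047 for Pgf, 0.039 for Nrp1, -0.12 for Gp1ba, 0.0019 for Cdh1, -0.53 for Retn, 0.21 for Hba-a2, -0.11 for Cd3g and -0.059 for Cd3e. The replicate block gave -0.026 for Cd3g. The muscle covariate gave -0.035 for Emcn, 0.060 for Nrp1, -0.17 for Lyve1, -0.25 for Des, 0.043 for Lum, -0.046 for Fap, -0.51 for Acta1, -0.22 for Cd3g and -0.17 for Cd3e. Without sgCda 3 and 4 they were -0.17 for Emcn, -0.018 for Vegfa, 0.065 for Angpt1, 0.021 for Nrp1, -0.078 for Gp1ba, 0.099 for Lum, 0.071 for Hbb-bs, 0.39 for Hba-a2, -0.14 for Cd3g and -0.097 for Cd3e. Leaving out each tumor gave -0.15 to 0.099 for Emcn, -0.071 to 0.23 for Vegfa, -0.19 to 0.075 for Angpt2, -0.085 to 0.085 for Nrp1, -0.10 to 1.72 for Des, -0.53 to 0.13 for Pf4, -0.38 to 0.048 for Lum, -0.12 to 0.39 for Fap, -0.45 to 1.36 for Retn, -0.83 to 0.27 for Hba-a2, -0.25 to 0.25 for Cd3g and -0.17 to 0.28 for Cd3e.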
